A study of Mus musculus with 653 samples.

Results

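The 10 genes described here belong to the Notch pathway and were followed in single cells of the early mouse liver. They were chosen by name: the 4 receptors Notch1, Notch2, Notch3 and Notch4, the 4 ligands Jag1, Jag2, Dll1 and Dll4, and the 2 target genes Hes1 and Hey1, so 10 of the 54195 genes in the count table, and each had 1 row there. The cells came from embryos of male Lgr5-EGFP-IRES-creERT2 mice on a C57BL/6 background and MF1 females, and this cross was shared by every group. In this allele GFP is made from the Lgr5 locus. All cells were sorted as Liv2+, CD31- and CD45-, where Liv2 is a surface antigen of hepatoblasts, CD31 marks endothelial cells and CD45 marks blood cells. Bulk cells passed this gate alone, and Lgr5-GFP+ cells were also positive for GFP. Over 5 library pools there were 42, 41, 41, 42 and 37 bulk cells and 45, 47, 40, 41 and 38 Lgr5-GFP+ cells of E10.5 (E for embryonic day), and 34, 34, 33, 34 and 24 bulk cells and 13, 27, 19, 14 and 7 Lgr5-GFP+ cells of E13.5. No embryo, litter or sort is named in the labels. A group therefore counts once, the cells in it are not replicates, and no p-value was computed. E10.5 and E13.5 livers were also digested for different lengths of time, so that stage and digestion cannot be told apart.

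Notch receptors sit on the surface of a cell and are bound by Delta-like or Jagged ligands on its neighbours. Binding lets the ADAM proteases and then gamma-secretase cut the receptor, and the freed part enters the nucleus, joins the DNA-binding protein RBPJ and switches on repressors of the Hes and Hey families. In the liver the pathway is best known for the formation of bile ducts, in which Jag1 and Notch2 take part, and in blood vessels Dll4 and Notch1 are known for sprouting and for the arterial fate.

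Lineages were set by reads of a single marker per cell. A cell was placed in the Afp lineage (the fetal serum protein of hepatoblasts), the Klf1 lineage (a transcription factor of red cell precursors), the Pdgfra lineage (a growth factor receptor of mesenchyme) or the Cdh5 lineage (VE-cadherin of endothelium) when it had more than 10 reads of that marker and of none of the others. This gave 61 Afp, 160 Klf1 and 27 Cdh5 cells and, over the 5 pools, 30, 23, 32, 38 and 26 Pdgfra cells, while 245 cells passed none of the 4 limits and 11 cells passed more than 1. The labels call all cells liver hepatoblasts, but the Afp lineage made up 25.1% of the E10.5 Lgr5-GFP+ cells, 2.96% of the E10.5 bulk cells, 0% of the E13.5 bulk cells and 2.5% of the E13.5 Lgr5-GFP+ cells. By fixed marker lists, all 13 hepatoblast genes were highest in the Afp lineage among the 4, 12 of 13 erythroid genes in the Klf1 lineage, 12 of 12 mesenchyme genes in the Pdgfra lineage and 13 of 13 endothelial genes in the Cdh5 lineage. Pecam1, the gene of CD31, had more than 10 reads in 74.1% of the Cdh5 cells although the gate excluded CD31. All 6 leukocyte genes were also highest in the Cdh5 lineage, with a summed level of 916.6 RPM (defined below) against 9.76 to 78.7 RPM in the other 3, and their part in the results was not tested.

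Reads on genes per cell had a median of 1192740 (463347 to 2279700). The library pools are known from the sample titles, and pools 1 and 2 stood apart. How the pools map to the sorts of the study is not given in the labels, so that a pool may also differ from another in its embryos, and library preparation and embryos cannot be told apart. Their 283 cells had a median of 4495 genes with reads against 6447 in the 370 cells of pools 3 to 5, at medians of 1197963 and 1182206 reads. Of the 27 Cdh5 cells, 24 came from pools 3 to 5, and 33 of the 61 Afp cells came from pool 2. Levels below are RPM, the reads of a gene per 1000000 reads of the summed cells, or RPKM, which is RPM per kilobase of exon, where genes are compared with each other. Shares are the percentage of cells with more than 10 reads of the gene, with exact Clopper-Pearson 95% intervals. Intervals and limits cover counting error only, since Smart-seq2 amplifies cDNA without molecular identifiers.

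Notch2 was the most frequent receptor in the Pdgfra, Klf1 and Afp lineages, Notch1 and Dll4 had their highest levels in the Cdh5 lineage, Jag1 was read mostly in Pdgfra cells and in cells without a marker, and Hes1 was frequent outside the Klf1 lineage. Per kilobase, the highest levels were 61.7 RPKM for Hes1 in the Cdh5 lineage, 26.9 RPKM for Notch2 in the Pdgfra lineage and 26.4 RPKM for Dll4 in the Cdh5 lineage.

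**Figure D1:**
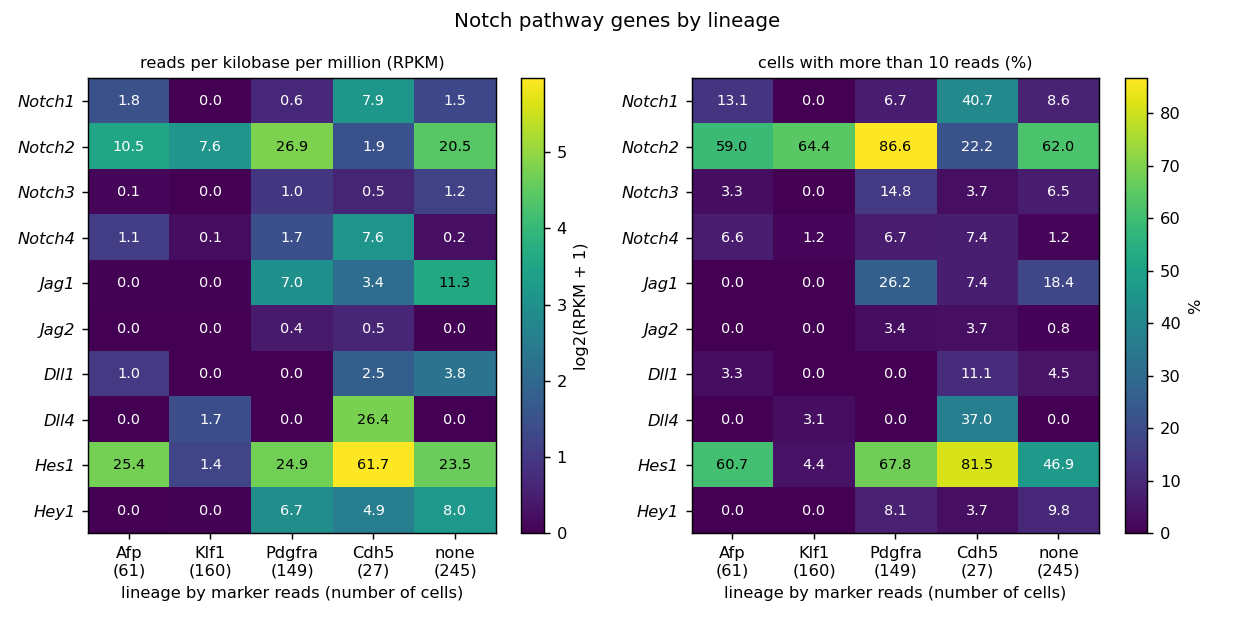
Level (left, RPKM, colour on a log2 scale after adding 1) and share of cells with more than 10 reads (right) of the 10 genes in the 4 lineages and in the cells with none of the 4 markers, with the number of cells under each column. Notch2 and Hes1 fill most columns, with shares up to 86.6% and 81.5%, and in the Klf1 column Notch2 stands at 64.4% with every other gene at or below 4.38%.

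Notch2 was the most widely read receptor. It passed 10 reads in 434 cells, which is 66.5% of all, with 86.6% (80.03 to 91.6) of Pdgfra cells, 64.4% (56.4 to 71.8) of Klf1 cells, 59.02% (45.7 to 71.5) of Afp cells and 22.2% (8.62 to 42.3) of Cdh5 cells. The summed levels were 290.3 RPM in the Pdgfra lineage, 112.9 RPM in the Afp lineage, 81.8 RPM in the Klf1 lineage and 20.02 RPM in the Cdh5 lineage. The Pdgfra level was above the Afp level by 1.36 on the log2 scale, but in pool 5 it was 124.4 RPM against 132.8 RPM in the Afp lineage. In the cells with none of the markers the level was 221.6 RPM and the share was 62.04%.

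Notch1 was a gene of few cells, 51 in all, and 21 of these had none of the 4 markers. In pools 3 to 5, the 12 E13.5 bulk cells without a marker were at 247.6 RPM, with a share of 41.7%. Cdh5 cells of these pools were at 126.6 RPM. In the Cdh5 lineage 11 of 27 cells passed 10 reads, a share of 40.7% (22.4 to 61.2), and the summed level was 112.1 RPM. The Afp lineage had 25.5 RPM and 13.1% of its cells, the Pdgfra lineage 8.77 RPM and 6.71%, and the Klf1 lineage 0.04 RPM and 0 of 160 cells, which allows a share of up to 1.88%. Of the Afp reads 58.1% came from 1 cell, and without that cell the Afp level was 10.9 RPM. The Cdh5 level was above the Afp level by 2.14 on the log2 scale, and by 0.88 without pool 3, where the rule given below was no longer met. In pools 1 and 2 alone, which held 3 Cdh5 cells, Notch1 was higher in the Afp lineage. In pools 3 to 5 alone the shares were 45.8% in the Cdh5 and 28% in the Afp lineage, with levels of 126.6 and 27.3 RPM. By pool, the Cdh5 and Afp shares were 42.9% and 45.5% in pool 3, and 42.9% and 20% in pool 4.

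Notch3 and Notch4 were rarer still. Notch3, a receptor best known from the muscle cells and pericytes of vessels, passed 10 reads in 14.8% (9.49 to 21.5) of Pdgfra cells and in 0 of 160 Klf1 cells, and its level was 7.73 RPM in the Pdgfra lineage, 4.42 in the Cdh5 lineage and 10.1 in the cells with no marker. Notch4, known as an endothelial receptor, passed 10 reads in 21 cells, of which only 2 were Cdh5 cells while 10 were Pdgfra cells. Its level in the Cdh5 lineage was 61.6 RPM, of which 81.7% came from 1 E10.5 Lgr5-GFP+ cell, and 11.7 RPM without that cell. In the 22 E13.5 Lgr5-GFP+ Cdh5 cells, 1 cell held 400 of the 401 Notch4 reads.

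Jag1, a ligand best known from bile duct formation, had more than 10 reads in 39 Pdgfra cells, 26.2% (19.3 to 34), in 45 of 245 cells without a marker, 18.4% (13.7 to 23.8), and in 2 of 27 Cdh5 cells. It had more than 10 reads in 0 of 61 Afp cells, where no cell had more than 2 reads, and in 0 of 160 Klf1 cells, where no cell had more than 3 reads, so that shares of up to 4.92% and 1.88% remain possible. The summed levels were 40.8 RPM in the Pdgfra lineage, 19.9 RPM in the Cdh5 lineage and 65.7 RPM without a marker. In the Cdh5 lineage 73.5% of the reads came from 1 cell, and the Pdgfra level exceeded the Cdh5 level by 1.04 on the log2 scale, just past the 2-fold limit. That limit was missed without pool 3, without pool 4 and without pool 5. In pools 1 and 2 alone, with 3 Cdh5 cells, the difference was -2.74. The order of Jag1 in the Pdgfra and Cdh5 lineages is therefore not settled by these cells.

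Dll4 passed 10 reads in 15 cells, and 10 of these were Cdh5 cells. The Cdh5 share was 37.04% (19.4 to 57.6) and the Cdh5 level was 101.7 RPM, against 6.64 RPM in the Klf1 lineage, 0.03 in the Pdgfra lineage and no read in the 61 Afp cells. The 9 positive Cdh5 cells of the E13.5 Lgr5-GFP+ group ranged from 30.5 to 750 RPM with a median of 94.7, and the 1 positive E10.5 bulk cell had 396 RPM. The other 5 positive cells were E13.5 bulk cells of the Klf1 lineage, from 3 pools, with 11.8 to 595 RPM. The Cdh5 level exceeded the Klf1 level by 3.94 on the log2 scale, and by 3.48 to 5.46 in the 18 alternatives that gave a value. It could be compared in pools 3 and 4 only, the ones with at least 5 Cdh5 cells. The 10 positive Cdh5 cells carried markers of sinusoidal endothelium, with more than 10 reads of the hyaluronan receptor Lyve1 in 9, of the scavenger receptor Stab2 in 9, and of the blood cell gene Ptprc in 0. In the other 17 Cdh5 cells the counts were 8 for Lyve1, 8 for Stab2 and 5 for Ptprc. The endothelial genes Pecam1 and Kdr passed 10 reads in all 10 Dll4 cells, but in only 10 and 11 of the other 17. Whether Dll4 went with sinusoidal genes among endothelial cells was not tested.

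Jag2 passed 10 reads in 9 cells and no lineage exceeded 3.82 RPM. Dll1 passed 10 reads in 16 cells, of which 11 had no marker, 3 were Cdh5 cells and 2 were Afp cells. The 3 E13.5 Lgr5-GFP+ cells without a marker had 343 to 1281 RPM of Dll1, and no Pdgfra cell had more than 2 reads.

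The windows from 250 bases before to 50 bases after the gene starts (RefSeq, GRCm38.p6) were on hand for 8 of the 10 genes, in 9 entries, since Dll1 has 2. The genes without a window were the targets Hes1 and Hey1, so that neither was searched. A pair of motifs was searched on both strands: the RBPJ core TGGGAA (or TTCCCA) and CACGCG (or CGCGTG), a sequence that Hes proteins are known to bind. The RBPJ core was in 0 of the 9 windows, against 25.6% of all 32851 mouse windows of this length. CACGCG was in 5 windows, those of Notch2, Jag1, Jag2, Dll4 and 1 of the 2 of Dll1, against 9.27% of all windows, and the members' windows were 55.7% to 86% G and C against a median of 52.7%. The motifs were chosen with these windows already read. Jag1 and Dll4 are shown because they were the 2 ligands called highest in a lineage, and the capitals mark CACGCG or CGCGTG. The Jag1 window is chr2:137116471-137116770 on the minus strand and holds the motif at 2 places, and the Dll4 window is chr2:119325534-119325833 on the plus strand. A match shows only that the letters are there, and no match says nothing of RBPJ.
Jag1: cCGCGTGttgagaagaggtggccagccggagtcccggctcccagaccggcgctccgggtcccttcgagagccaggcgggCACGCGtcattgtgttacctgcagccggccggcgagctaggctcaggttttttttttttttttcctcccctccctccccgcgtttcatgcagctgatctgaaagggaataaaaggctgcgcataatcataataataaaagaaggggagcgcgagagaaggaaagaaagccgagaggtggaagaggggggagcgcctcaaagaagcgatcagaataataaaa
Dll4: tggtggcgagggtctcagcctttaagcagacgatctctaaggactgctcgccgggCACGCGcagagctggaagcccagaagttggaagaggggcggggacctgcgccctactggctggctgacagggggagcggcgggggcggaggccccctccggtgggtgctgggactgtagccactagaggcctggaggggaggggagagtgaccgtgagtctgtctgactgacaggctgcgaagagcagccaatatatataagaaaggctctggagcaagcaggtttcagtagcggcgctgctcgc

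The target genes differed in the same cells. Hes1, a repressor that keeps progenitor cells undifferentiated and that other signals switch on as well, passed 10 reads in 287 cells. Its share was 81.5% (61.9 to 93.7) of Cdh5 cells, 67.8% (59.7 to 75.2) of Pdgfra cells, 60.7% (47.3 to 72.9) of Afp cells and 4.38% (1.78 to 8.81) of Klf1 cells. The intervals of the Cdh5, Pdgfra and Afp shares overlapped, and the Klf1 interval lay below all 3. The levels were 125.6, 50.8, 51.8 and 2.82 RPM in that order. The Cdh5 level exceeded the next by 1.28 on the log2 scale, and 1 Cdh5 cell held 28.2% of its reads. The rule was not met without pool 5 and without the cell with the most reads in each lineage. The difference turned to -0.64 with a marker limit of 0 reads and to -0.44 in pools 1 and 2 alone.

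Hey1, a target known from vessels and mesenchyme, passed 10 reads in 41 cells. Its share was 8.05% of Pdgfra cells, 9.80% of cells without a marker, 1 of 27 Cdh5 cells and 0 of 61 Afp and 0 of 160 Klf1 cells, which allows shares of up to 4.92% and 1.88%. Its level was 21.8 RPM in the Pdgfra lineage, of which 41.5% came from 1 cell.

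**Figure D2:**
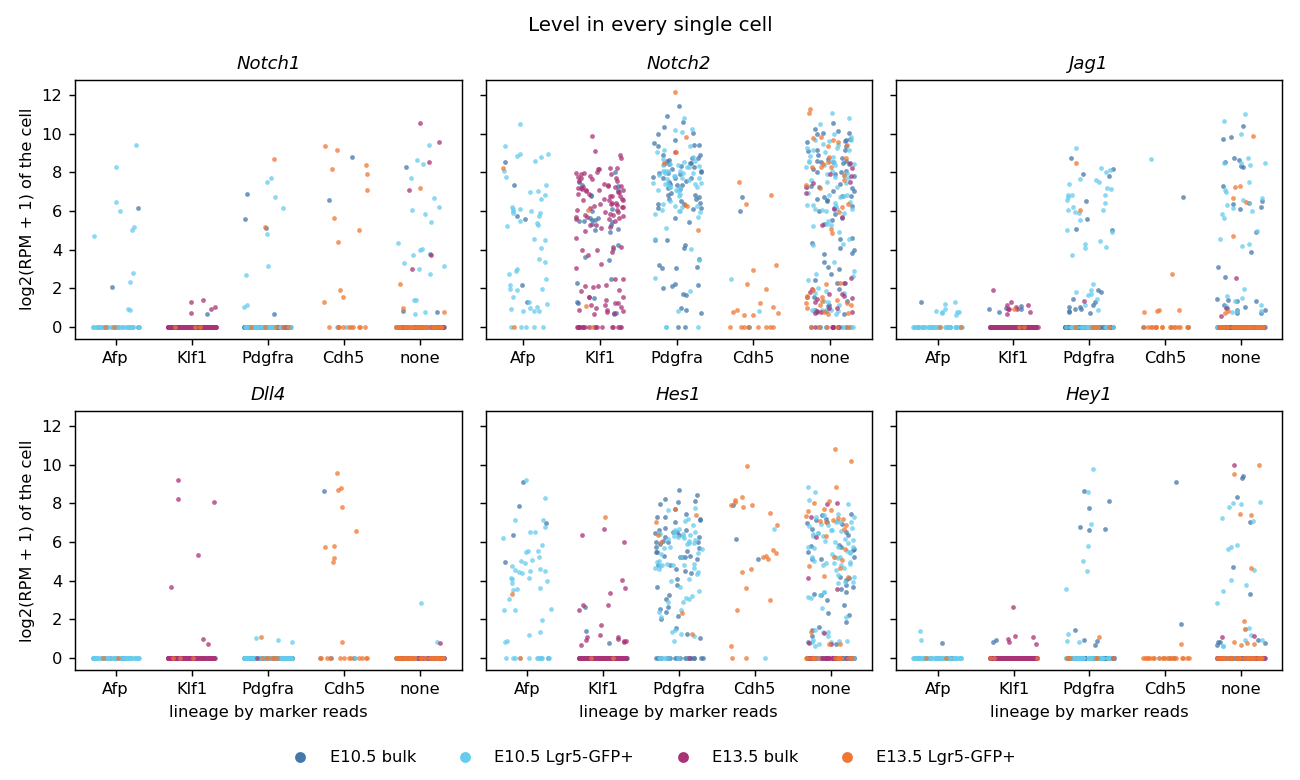
Level of 6 genes in every cell, as log2(RPM + 1), by lineage, with 1 point per cell coloured by stage and sort. The Dll4 points above 2 lie among Cdh5 cells, 5 Klf1 cells and 1 cell without a marker, and the Jag1 points of the Afp and Klf1 lineages lie at or below 2.

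By the rule that a level be at least 2-fold above the other 3 lineages and above them in every pool with 5 or more cells of both, 3 of the 10 genes were highest in the Cdh5 lineage (Notch1, Dll4 and Hes1), 1 in the Pdgfra lineage (Jag1) and 0 in the Afp and Klf1 lineages. Over all 14236 genes with a mean level of at least 1 RPM, the same rule called 8.17% for the Cdh5 lineage, 4.4% for the Pdgfra lineage, 2.82% for the Afp lineage and 2.7% for the Klf1 lineage. With the rule on pools left out, 7 of the 10 genes were called, while over all genes 15.3% were called for the Cdh5, 12.3% for the Pdgfra, 7.44% for the Afp and 5.36% for the Klf1 lineage.

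Between the stages, bulk cells had far fewer Jag1 and Hes1 reads at E13.5 than at E10.5. Jag1 passed 10 reads in 26 E10.5 bulk cells, 12.8% (8.54 to 18.2), and in 0 E13.5 bulk cells, which allows a share of up to 1.89%. Its level was 34.8 RPM at E10.5 and 0.13 RPM at E13.5, and the range over pools was 16.01 to 85.6 RPM against 0 to 0.25 RPM, so that the pools of the 2 stages did not overlap. Hes1 passed 10 reads in 42.4% (35.5 to 49.5) of E10.5 bulk cells and in 6.92% (3.50 to 12.04) of E13.5 bulk cells. Its level was 37.7 against 6.17 RPM, a difference of -2.61 on the log2 scale, and the pools ranged from 28.03 to 66.9 RPM against 0.76 to 13.7 RPM. Notch2 was at 206.8 RPM at E10.5 and at 86.1 RPM at E13.5, a difference of -1.26. That of pools 3 to 5 alone was -0.53, and the 2-fold limit was missed there and without pool 1. Notch3 was at 5.95 against 1.98 RPM, and 97.2% of its E13.5 reads came from 1 cell. In pools 1 and 2 alone Notch3 did not meet the rule.

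By the same rule of 2-fold and 1 direction in every pool, these 4 genes were lower among 8 tested and 0 were higher, while over all 13586 genes 15.5% were called lower and 6.17% higher. Jag1 passed the filter of a mean of 1 RPM only through its E10.5 level. The median over all genes was -0.25 on the log2 scale. The bulk groups differed in makeup, since the Klf1 lineage was 15.8% of the E10.5 and 78.6% of the E13.5 bulk cells. Outside the cells with more than 10 Klf1 reads, Jag1 was at 41.1 RPM in the E10.5 bulk cells and at 0.23 RPM in the 33 E13.5 bulk cells that remained, Hes1 at 44.5 and 20.2 RPM, and Notch2 at 238.3 and 72.7 RPM. Without those cells the Hes1 difference was -1.14 and no longer met the rule, that of Notch3 turned to 0.29, and Notch2, Notch4 and Jag1 were called lower, against 26.7% of all genes. Notch4 was at 11.95 and 0.05 RPM there. Notch4 and Jag1 passed the filter of a mean of 1 RPM only through their E10.5 level, so that this count is no result about the genes. For Jag1, 25 (14.9%) and 0 of these cells passed 10 reads, with intervals of 9.87% to 21.2% and 0% to 10.6%, so that the share of the few E13.5 cells is poorly known.

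**Figure D3:**
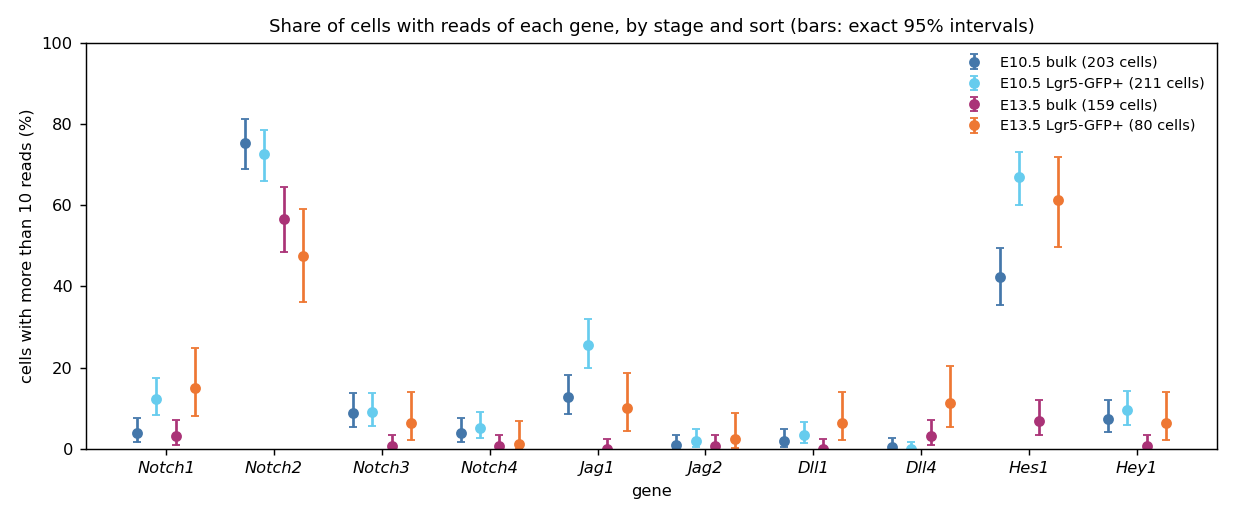
Share of cells with more than 10 reads of each of the 10 genes in the 4 stage and sort groups, with exact 95% intervals that cover counting error only. The E13.5 bulk cells lie below the other 3 groups for Hes1 and Jag1, and Notch2 is the highest gene of both bulk groups.

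In the Lgr5-GFP+ cells Hes1 went the other way. It passed 10 reads in 66.8% (60.03 to 73.1) of E10.5 and 61.3% (49.7 to 71.9) of E13.5 Lgr5-GFP+ cells, but its level was 45.95 RPM against 107.7 RPM, a difference of 1.23 on the log2 scale. The pools ranged from 30.6 to 78.7 RPM at E10.5 and from 61.3 to 210 RPM at E13.5, and the 2 ranges overlapped, though within each pool the E13.5 level was the higher. The 2-fold limit was missed without pool 2 (0.96) and in pools 3 to 5 alone (0.92). Of the 80 E13.5 Lgr5-GFP+ cells 22 were Cdh5 cells, and without these the level was 94.7 RPM. Hes1 was the 1 gene of 10 called higher and 0 were called lower, while over all 14564 genes 2.7% were called higher and 10.1% lower. Dll4 was at 32.1 RPM at E13.5, with 9 positive cells that were all Cdh5 cells, and at 0.06 RPM at E10.5, with 0 cells positive, and it was not called since pools 1, 2 and 5 held no Dll4 read of E13.5.

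Lgr5-GFP+ and bulk cells of E13.5 differed in Hes1. The level was 107.7 against 6.17 RPM, a difference of 4.13 on the log2 scale, and the pools did not overlap. The call held in all 17 alternatives. In 16 of these the difference was 3.57 to 4.998, and without the cells with more than 10 Klf1 reads, whose lineage made up 78.6% of the bulk and 3.75% of the Lgr5-GFP+ cells, it was 2.45, with 110.5 against 20.2 RPM. Jag1, at 26.1 against 0.13 RPM, missed the rule since the Lgr5-GFP+ cells of pool 1 held no Jag1 read, and it was called without pool 1. Hes1 was the 1 gene of 10 called higher and 0 were lower, against 7.92% higher and 9.44% lower over all 13574 genes.

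At E10.5 no gene was called between Lgr5-GFP+ and bulk cells in either direction, against 3.03% higher and 2.11% lower over 14284 genes. Here the pools went against each other. Jag1 in the Lgr5-GFP+ cells was at 9.90 RPM in pools 1 and 2 and at 104.8 RPM in pools 3 to 5, with 5.43% and 41.2% of the cells positive, while in bulk cells it was at 57.4 and 19.8 RPM. In pools 3 to 5 alone, Jag1, Notch1 and Dll1 were called higher in the Lgr5-GFP+ cells, against 9.26% of all genes, and in pools 1 and 2 alone Jag1 and Hey1 were called lower, against 13.2% of all genes. The same split was seen within the Pdgfra lineage, in which Jag1 passed 10 reads in 8 of 75 bulk cells, 10.7% (4.72 to 19.9), and in 29 of 66 Lgr5-GFP+ cells, 43.9% (31.7 to 56.7). By pool the Lgr5-GFP+ share was 0, 28.6, 57.1, 68.2 and 40% and the bulk share 12.5, 7.69, 6.67, 13.3 and 12.5%. Pool 1 alone thus went against the other 4 in the share, and pools 1 and 2 did so in the level. No member was called within this lineage, against 1.59% higher and 1.48% lower over 13672 genes, and Notch2 was close to equal with 257.5 against 280.1 RPM.

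**Figure D4:**
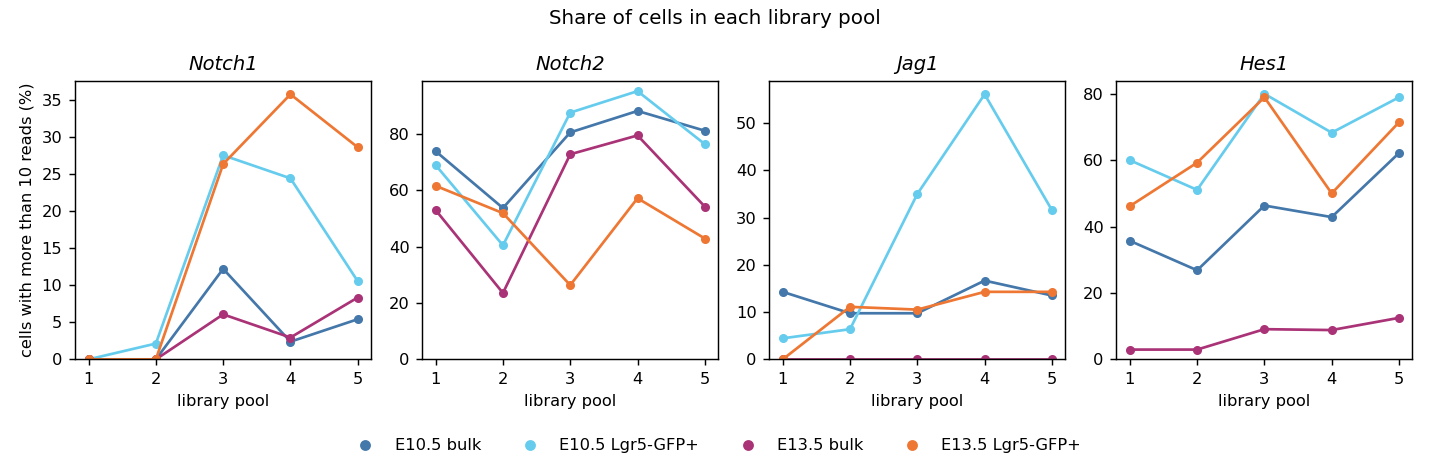
Share of cells with more than 10 reads of Notch1, Notch2, Jag1 and Hes1 in each of the 5 library pools, 1 line per stage and sort group. Notch1 lies at or near 0 in pools 1 and 2 in all 4 groups, and Jag1 in E10.5 Lgr5-GFP+ cells lies between 31.6 and 56.1% in pools 3 to 5 and at 4.44 and 6.38% in pools 1 and 2.

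Notch1 passed 10 reads almost only in pools 3 to 5, in 50 of 370 cells of pools 3 to 5 and in 1 of 283 cells of pools 1 and 2. Among 11516 genes read in at least 20 cells, 5.10% were at least 10 times as frequent in pools 3 to 5. Notch2 went the other way in level, with 163.2 RPM in pools 3 to 5 against 539.2 RPM in pools 1 and 2 in the Pdgfra cells, although its share there was 91.7% against 77.4%. In the same lineage 37.5% of 13385 genes were at least 2-fold higher in pools 3 to 5 and 14.3% lower. Library pool and Notch1 detection thus cannot be told apart in pools 1 and 2.

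Within the Klf1 lineage, Notch2 was the 1 gene of the 10 with more than 10 reads in over 4.38% of the cells. It was at 55.9 RPM in 32 E10.5 bulk cells and at 90.6 RPM in the E13.5 bulk cells, with shares of 75% (56.6 to 88.5) and 62.4% (53.3 to 70.9). Dll4 had no read at E10.5 and 8.69 RPM at E13.5, from 5 cells, 4% (1.31 to 9.09), and 0 of 32 cells still allows a share of up to 9.38%, so that a difference in share was not detectable. Hes1 was at 0.15 and 2.20 RPM, with 0 of 32 cells and 6 cells positive. Both genes were called higher, and 0 of the 10 lower, but both passed the filter of a mean of 1 RPM only through their E13.5 level, so that the count is no result about the genes. Over all 11131 genes 8.62% were called higher and 5.22% lower. Without pool 5 the 2 genes called were Dll4, higher, and Notch4, lower. The Hes1 difference missed the rule there and without the cell with the most reads on each side, and it turned to -1.23 when cells with a second marker were included and to -2.12 with a marker limit of 0 reads.

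Ligand and receptor were often read in the same cell outside the hepatoblast and erythroid lineages. More than 10 reads of at least 1 receptor were found in 89.9% of Pdgfra, 65.6% of Klf1, 63.9% of Afp and 55.6% of Cdh5 cells. A ligand was found in 44.4% of Cdh5 and 28.9% of Pdgfra cells, but in 5 of 160 Klf1 and 2 of 61 Afp cells. Both were found in 8 of 27 Cdh5 cells, 29.6% (13.8 to 50.2), in 40 Pdgfra cells, 26.8% (19.9 to 34.7), in 2 of 61 Afp cells, 3.28% (0.40 to 11.4), and in 4 of 160 Klf1 cells, 2.5% (0.69 to 6.28). In the Pdgfra lineage 36 of the 39 Jag1 cells also had Notch2, against 86.6% of all cells of the lineage. In the Cdh5 lineage 6 of the 10 Dll4 cells had Notch1, and 1 had Notch2.

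Hes1 was set beside the receptors within each lineage. In the Pdgfra lineage it passed 10 reads in 93 of the cells with Notch2, 72.1% (63.5 to 79.6), and in 8 of 20 cells without, 40% (19.1 to 63.9). These intervals overlapped narrowly, and the Hes1 levels were 51.8 and 44.3 RPM. Without a marker the shares were 57.9% (49.6 to 65.8) with and 29.03% (20.1 to 39.4) without Notch2, with Hes1 levels of 51.3 and 42.1 RPM. The cells without a marker were mixed in type, and the part of this mix was not tested. In the Afp lineage the shares with and without Notch2 were 55.6% (38.1 to 72.1) and 68% (46.5 to 85.1), with overlapping intervals, and in the Klf1 lineage 3.88% and 5.26%. All 11 Cdh5 cells with Notch1 had Hes1, and so had 11 of the 16 without. Pdgfra shares with and without were 60% and 68.3% for Notch1, 81.8% and 65.4% for Notch3, and 70% and 67.6% for Notch4. Without a marker they were 71.4% and 44.6% for Notch1 and 56.25% and 46.3% for Notch3. In the Afp lineage they were 75% and 58.5% for Notch1. The intervals with and without overlapped in each of these Pdgfra, unmarked and Afp comparisons. Between pools 1 and 2 and pools 3 to 5 the Notch2 share was 77.4% and 91.7% in the Pdgfra lineage and 51.8% and 75% without a marker, and the Hes1 share was 60.4% and 71.9% and then 34.3% and 63%, and the part of the pools in these differences was not tested.

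**Figure D5:**
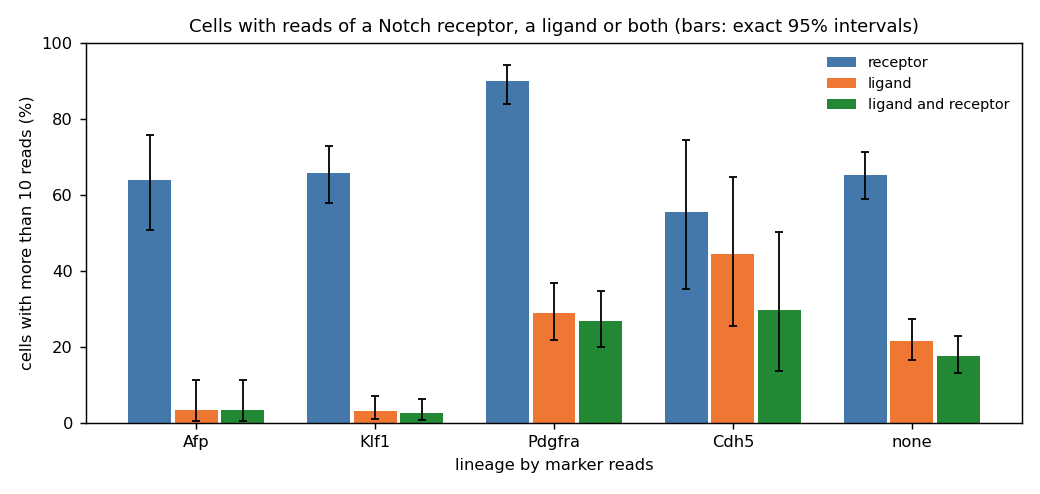
Share of cells with more than 10 reads of at least 1 of the 4 receptors, at least 1 of the 4 ligands, or both, in the 4 lineages and in the cells with none of the markers, with exact 95% intervals. The shares with both are 29.6% in the Cdh5 and 26.8% in the Pdgfra lineage, and under 3.5% in the Afp and Klf1 lineages.

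Jag1 was most frequent in a small set of cells with biliary genes. Cells with more than 10 reads of at least 3 genes of the fixed biliary list were 30 in number, 25 of them E10.5 Lgr5-GFP+ and 29 from pools 3 to 5, and 20 had no lineage marker. In them the duct regulator Sox9 passed 10 reads in 26, the epithelial adhesion gene Epcam in 24, Krt7 in 18 and Krt19 in 17, but Afp in 3, Alb in 1 and Hnf4a in 1, and the mesothelial genes Wt1 and Upk3b in 11 and 10. In the E10.5 Lgr5-GFP+ cells of pools 3 to 5, Jag1 passed 10 reads in 19 of 25 such cells, 76% (54.9 to 90.6), and in 30 of the 94 others, 31.9% (22.7 to 42.3), with levels of 327.3 and 49.4 RPM. Among these others, the Pdgfra cells alone had a Jag1 share of 56.1% (39.7 to 71.5), which overlapped with that of the biliary-list cells. Hey1 passed 10 reads in 44% (24.4 to 65.1) against 8.51% (3.75 to 16.1), Notch1 in 44% (24.4 to 65.1) against 14.9% (8.39 to 23.7), and Dll1 in 20% (6.83 to 40.7) against 2.13% (0.26 to 7.48). The intervals of Jag1, Hey1 and Notch1 did not overlap between the 25 cells and the 94 others, those of Dll1 did, and Notch2 and Hes1 had overlapping intervals with 92% against 85.1% and 88% against 72.3%. The Notch1 interval did overlap with those of the Pdgfra cells (4.08 to 26.2) and the cells without a marker (2.04 to 25.8) among the others. That of Hey1 overlapped with the cells without a marker (3.63 to 29.8) but not with the Pdgfra cells (1.54 to 19.9). For Jag1 the cells without a marker (7.45 to 37.5) did not overlap. The 2 sets had similar medians of 7250 and 7058 genes with reads per cell. Over all groups and pools, Hey1 passed 10 reads in 12 of the 30 biliary-list cells, 40% (22.7 to 59.4). It did so in 9 of 23 cells with at least 3 genes of the fixed mesothelial list, 39.1% (19.7 to 61.5). For the fixed mural list, of vessel muscle cells and pericytes, the Hey1 share was 25% (9.77 to 46.7). A cell could belong to more than 1 of these lists.

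Other genes of the pathway were counted over 56 genes in 6 fixed lists, of which 54 had reads. Among 44 tested by lineage, 4 were highest in the Cdh5 lineage, namely Mfng, a fucose-extending enzyme that tunes the response to ligands, at 162.6 RPM, Eogt at 40.96 RPM, the endocytic inhibitor Numb at 330.4 RPM and the coactivator Maml2 at 457.5 RPM. The share over all genes was 8.17% for the Cdh5 lineage, so that this count is near it, and 4.4% for the Pdgfra lineage. In the Pdgfra lineage 3 were highest, namely Dtx3 at 126.97 RPM, the target Hey2 at 23.5 RPM and Sox9 at 151.9 RPM. Hey2 was at 0.07 to 1.36 RPM in the other 3 lineages and passed the filter of a mean of 1 RPM only through its Pdgfra level. In the Afp lineage the gene called highest was the ligand-like Dlk1, a known hepatoblast gene, at 1189 RPM, and in the Klf1 lineage none. Over the 4 lineages, the protease gene Adam10 was at 106.8 to 257.2 RPM and Rbpj at 15.8 to 46.7 RPM, while the coactivator Maml1 was at 0 to 2.32 RPM. Over all cells, the 3 genes with the highest level per kilobase were Dlk1 (50 RPKM), Dlk2 (0.374 RPKM) and Dll3 (0.347 RPKM) among the other ligands. Among the genes of glycosylation and ligand uptake they were Rfng (11.7 RPKM), Mib1 (9.01 RPKM) and Poglut1 (8.56 RPKM). Among the genes of receptor cleavage they were Adam10 (35.9 RPKM), Ncstn (19.1 RPKM) and Psenen (16.9 RPKM). Among the inhibitors and turnover genes they were Dtx3 (30.1 RPKM), Numb (24.9 RPKM) and Itch (8.12 RPKM). In the nuclear complex and its corepressors they were Snw1 (37.8 RPKM), Hdac1 (26.4 RPKM) and Ncor1 (15 RPKM). Among the other targets they were Hes6 (60.7 RPKM), Sox9 (18.7 RPKM) and Heyl (2.32 RPKM). Between E13.5 and E10.5 bulk cells 7 of 46 genes were called lower and 3 higher, shares near the 15.5% and 6.17% over all genes. Among the lower ones were Rbpj, at 12.8 against 34.4 RPM, Maml3, at 30.3 against 129.2 RPM, and Sox9, at 0.11 against 105.7 RPM, the others being Dlk1, Furin, Numbl and Tle3, and the higher ones were Adam17, Psen2 and the corepressor Cir1. Sox9 passed the filter of a mean of 1 RPM only through its E10.5 level. Between the sorts at E13.5, 5 of 45 were called higher in Lgr5-GFP+ cells (Dlk1, Furin, Dtx2, Maml3 and Sox9) and 1 lower (Dtx3), against 7.92% and 9.44% of all genes. Here Sox9 passed the filter only through its level in the Lgr5-GFP+ cells. At E10.5 the 1 called of 47 was Hey2, higher in Lgr5-GFP+ cells, against 3.03% of all genes. Between the stages of Lgr5-GFP+ cells, Lfng was called higher and Poglut1 and Tle1 lower at E13.5, of 46, against 2.7% and 10.1% of all genes. In the Klf1 lineage, Pofut1, Lfng, Dtx2, Crebbp and Cir1 were called higher and Poglut1 lower at E13.5, of 37, against 8.62% and 5.22% of all genes. Nrarp, a target often used as a readout of Notch, had 1 read in all cells together. The listed genes Fbxw7 and Hes2 had 0 reads. Whether such rows show absent RNA or reads lost in counting was not tested.

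The genes most like each member were sought over all cells among 11516 genes with more than 10 reads in at least 20 cells, by Pearson's r of log2(RPM + 1). For Dll4 they were Gpr182 (0.58), Dnase1l3, Lyve1, Flt4 and Cdh5, most of them endothelial genes. For Hes1 they were Id3 (0.52), Id2, Igfbp4, Id1 and Marcks. For the other 8 members the highest r was 0.23 to 0.40. Among the receptors these were Igfbp7, Col4a1, Ptprm and Col4a2 for Notch1, Peg3, Serf1, Maged1, Ptn and Prrx1 for Notch2, Mageh1, Nsg1, Hey1, Jam3 and Rbms3 for Notch3, and Gm37352, B230377A18Rik, Rarg, Galnt18 and Hhex for Notch4. Among the ligands they were Bmp4, Dkk1, Rbms3, Unc5b and Arhgap28 for Jag1, Mylk, Il4ra, Ehd2, Colec10 and Edn1 for Jag2, and Galnt18, Cdh6, Myog and Lbp for Dll1. For Hey1 they were Rasl11b, Plat, Spon1, Ncam1 and Rapgef2. The cells share libraries, pools and makeup, so these values are descriptions. With Spearman's rho instead, fewer than 4 of the 5 genes were kept for 9 of the 10 members.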

How the data were processed

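Single cells were sequenced by Smart-seq2, and each library is 1 cell. Read counts per gene are as deposited: per the study's methods the authors aligned single-end reads with STAR 2.6.0c to GRCm38 with spike-ins, counted uniquely mapped reads over Ensembl 93 genes with Subread 1.6.2, and kept cells by read, gene, mitochondrial and spike-in limits. Their batch-corrected table of 1766 genes was not used. The paper does not state whether strand was used in counting. Where it was not, reads of a gene and of an annotated gene that overlaps it cannot be told apart. All of the 10 genes except Jag1, Hes1 and Hey1 have such an overlap.

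Genes were named, measured and placed by GENCODE M21. Cells were grouped by stage and sort from the labels and by marker reads, and 11 cells with several markers were kept apart. No doublet caller was run. Reads were summed over cells and scaled to RPM. A gene was called when its RPM differed at least 2-fold and in 1 direction in every pool with 5 or more cells of both sides, among genes with a mean of at least 1 RPM. Labels name no animal, so no test was run; exact Clopper-Pearson 95% intervals, and limits of 3 counts for a count of 0, cover counting error only. All 10 genes, every called gene of the pathway lists, the 3 genes of highest level in each list and the 5 genes most like each member were named, except for a few results that are not reported here. Members and lists were chosen with earlier results of these data known. The scripts were tested on simulated data and used Python 3.11.15, numpy 2.4.6, pandas 2.3.3, scipy 1.17.1 and matplotlib 3.10.9. Alternatives were other scalings, thinning, fold limits, marker limits, pools left out and, chosen after seeing the data, pool sets, no condition on pools, and the cell with the most reads on each side or the Klf1 cells left out. Depth ranged from 463347 to 2279700 reads per cell.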

Additional observations from a re-analysis of the deposited data

Results flagged for a closer look

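The summed level of Hes1 went in opposite directions between the stages in the 2 sorts. Its E13.5 level over its E10.5 level was -2.61 on the log2 scale in bulk cells and 1.23 in Lgr5-GFP+ cells, in the same direction in each of the 5 pools within either sort. The difference between the sorts was not tested, since each group is 1 sample. Cell makeup moved with it: the Klf1 lineage, in which 4.38% of cells had Hes1, was 78.6% of the E13.5 bulk cells, and the Cdh5 lineage was 27.5% of the E13.5 Lgr5-GFP+ cells. Without Klf1 cells the bulk levels were 44.5 RPM at E10.5 and 20.2 RPM at E13.5, a difference of -1.14 that no longer met the rule, and without Cdh5 cells the E13.5 Lgr5-GFP+ level was 94.7 RPM.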

How the results depend on the processing

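No paired analysis was possible because the replicate numbers only name cells and pair none between groups. The pools, which hold all 4 groups, entered through the rule of 1 direction in every pool. Scaling by the median of ratios ended the call of Jag1 in the Pdgfra lineage (0.76). The mean of cell RPM and thinning each dropped that call and Notch3 between the bulk stages, and added Notch2 in the Pdgfra lineage and lower Notch4 and Hey1 between the bulk stages. A total without haemoglobin genes changed no call. A 4-fold limit left 2 genes highest in a lineage, 2 between the bulk stages and 0 between the stages of Lgr5-GFP+ cells. Over all genes it left 1.83% for the Afp, 1.21% for the Klf1, 3.13% for the Pdgfra and 4.92% for the Cdh5 lineage. It left 2.26% higher and 11.9% lower between the bulk stages, and 1.68% and 6.4% between the stages of Lgr5-GFP+ cells. Thinning to 100000 reads left 1 gene in the Klf1 lineage, against 7.76% higher and 4.14% lower over all genes. With a marker limit of 0 reads, 1 gene was called within the Pdgfra lineage, against 13.8% higher and 7.45% lower over all genes. With the same limit Jag1 in the Pdgfra lineage (-0.63), Hes1 in the Cdh5 lineage (-0.64) and Hes1 between the stages of Klf1 cells (-2.12) turned in direction, the last also with every cell over the marker limit (-1.23). With 1 pool left out, the count was 3 to 5 by lineage, 3 to 5 between the bulk stages, 1 to 2 between the stages of Lgr5-GFP+ cells, 0 to 1 between the sorts at E10.5, 1 to 2 at E13.5, 2 in the Klf1 lineage and 0 to 1 in the Pdgfra lineage. Over all genes the shares by lineage were 2.81 to 3.74% (Afp), 3.09 to 3.56% (Klf1), 4.93 to 6.52% (Pdgfra) and 8.2 to 13% (Cdh5). Higher and lower, they were 6.94 to 7.59% and 17.4 to 19.4% between the bulk stages. For Lgr5-GFP+ stages they were 3.4 to 4.94% and 12.4 to 14.9%. For the sorts they were 4.34 to 6% and 3.19 to 3.71% at E10.5, and 9.26 to 11.7% and 11.7 to 12.6% at E13.5. The genes changed with the pool: Notch1 without pool 1, Dll1 without pool 2 and Hey1 (lower) without pool 4 were called between the sorts at E10.5, Jag1 joined Hes1 at E13.5 without pool 1, Notch1 (higher) and Jag1 (lower) took the place of Hes1 between the stages of Lgr5-GFP+ cells without pool 2, Notch4 joined Hes1 there without pool 3, and Notch3 was called in the Pdgfra lineage without pool 5. The ligand and receptor share at 1 read or more was 19.7% in the Afp, 15% in the Klf1, 43% in the Pdgfra and 55.6% in the Cdh5 lineage.

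The next alternatives were chosen after seeing the data. Without the cell with the most reads on each side, 1 gene was left in the Klf1 lineage, against 10.2% higher and 5.5% lower over all genes. In pools 3 to 5 alone, 5 genes were called between the stages of Lgr5-GFP+ cells, 3 between the sorts at E10.5, 2 at E13.5 and 1 in the Pdgfra lineage. In pools 1 and 2 alone the counts were 4, 2, 4 and 1, with 1 in the Klf1 lineage, and Jag1 in the Pdgfra lineage (-2.74), Hes1 in the Cdh5 lineage (-0.44) and Hes1 between the stages of Klf1 cells (-0.59) turned in direction. Over all genes, the share higher between the stages of Lgr5-GFP+ cells was 9.65% in pools 3 to 5, against 2.7% with all pools. The counts in these pool sets are therefore no result about the genes. Without the condition on pools, 7 genes were highest in a lineage, 8 differed between the bulk stages, 7 between the stages of Lgr5-GFP+ cells, 3 between the sorts at E10.5, 10 at E13.5 and 4 in the Pdgfra lineage. Over all genes the shares higher and lower were then 14.1% and 35% between the bulk stages, 24.2% and 25.7% between the stages of Lgr5-GFP+ cells, 14.2% and 13.3% between the sorts at E10.5, 38.2% and 20.8% at E13.5, and 17.7% and 16.7% in the Pdgfra lineage. Without the cells over the Klf1 limit, Jag1 and Hes1 were called between the sorts at E13.5 (2 genes), Hes1 between the bulk stages (-1.14) was not, and Notch3 there turned to 0.29. The cause of these changes was not tested. Jag1 in the Pdgfra lineage was still called in 9 of 19 alternatives, Hes1 between the stages of Klf1 cells in 13 of 19, Hes1 in the Cdh5 lineage in 14 of 19, Hes1 between the bulk stages in 16 of 17 and Jag1 there in 17 of 17.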
